A study of Mus musculus with 34 samples.

Results

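AP-1 is a family of transcription factors that bind DNA as dimers, and 10 of its genes were examined here in the dorsal hippocampus of mice trained in spatial object recognition (SOR). The genes were chosen by symbol from GENCODE M21 among the 54532 genes of the bulk RNA-seq table. They comprised the 4 Fos-type genes *Fos*, *Fosb*, *Fosl1* and *Fosl2*, the 3 Jun-type genes *Jun*, *Junb* and *Jund*, and 3 partners, *Jdp2*, *Atf3* and *Maff*. Each of the 10 symbols matched 1 row, and all 10 were among the 22018 genes that passed the filter on low counts. Adult male C57BL/6J mice, 2 to 3 months old, were either kept in the homecage (n = 4) or trained in SOR and euthanized 1 h after the last trial (n = 4), with 1 library per mouse. Trained mice had explored an open field and then objects placed in it. No group explored the arena without the objects, so exposure to the arena and learning of object locations cannot be told apart. The spatial, single-nucleus and ATAC samples of the series were not analysed here.

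Fos and Jun proteins carry a basic leucine zipper, through which a Fos-type protein pairs with a Jun-type protein, while Jun-type proteins can also pair among themselves. Several of these genes are immediate early genes, which neurons transcribe within minutes of activity without new protein synthesis, and *Fos* is widely used as a marker of recently active neurons in the hippocampus. The partners modulate the same sites. Jdp2 and Atf3 can pair with Jun proteins and often act as repressors, and Maff is a small Maf protein without a transactivation domain of its own.

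Total counts per library ranged from 51406011 to 81525977. SOR replicate 1 stood apart on the first principal component of all genes, at -29.0 against -4.71 to 15.9 for the other libraries, so results are also given without it where that matters. The tissue label was checked against 6 neuronal and 6 hippocampal subfield markers, the lowest of which, *Grik4*, was at 24.8 CPM or more in every library. Of 6 choroid plexus genes none was called, against 0.173% of all genes tested. All 6 had log2 fold changes above 0, median 1.37, against 43.8% of all genes and a median of -0.02. Their summed level varied from 25.2 to 1094 CPM in homecage mice and from 41.4 to 4002 CPM in SOR libraries. The 10 heat shock and unfolded protein response genes summed to 759 to 917 CPM in homecage mice. In SOR libraries the sum was 975 to 1621 CPM. Of these 10, *Dnajb1* alone was called, higher in SOR mice, against 0.15% of all genes. All 10 had log2 fold changes above 0, with a median of 0.61. All 10 also reached an unadjusted p under 0.05 in edgeR's test, against 10.1% of all genes. For 9 of them every SOR library lay above every homecage library, against 2.98% of all genes. The part of these genes in the values that follow was not tested.

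Of the 10 genes, 4 were called higher in SOR than in homecage mice, *Fos*, *Fosb*, *Junb* and *Atf3*, and none was called lower. Calls required a fold change above 1.4 together with an adjusted p under 0.05 in edgeR's quasi-likelihood test. Of all genes tested 0.173% met both, 0.15% with higher and 0.0227% with lower values in SOR mice. Without the fold threshold the same 4 genes passed and none was lower, against 0.309% of all genes in either direction, 0.273% higher and 0.0363% lower. For 6 of the 10 genes every SOR library lay above every homecage library, a separation shown by 2.98% of all genes, and by 6.94% when both directions are counted. An unadjusted p under 0.05 was reached by 7 of the 10, against 10.1% of all genes. The median log2 fold change of the 10 genes was 0.59, against -0.02 over all genes tested, and 9 of the 10 values were above 0, against 43.8% of all genes. In tissue RNA of this kind, more RNA per cell and more cells that express a gene cannot be told apart.

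**Figure D1:**
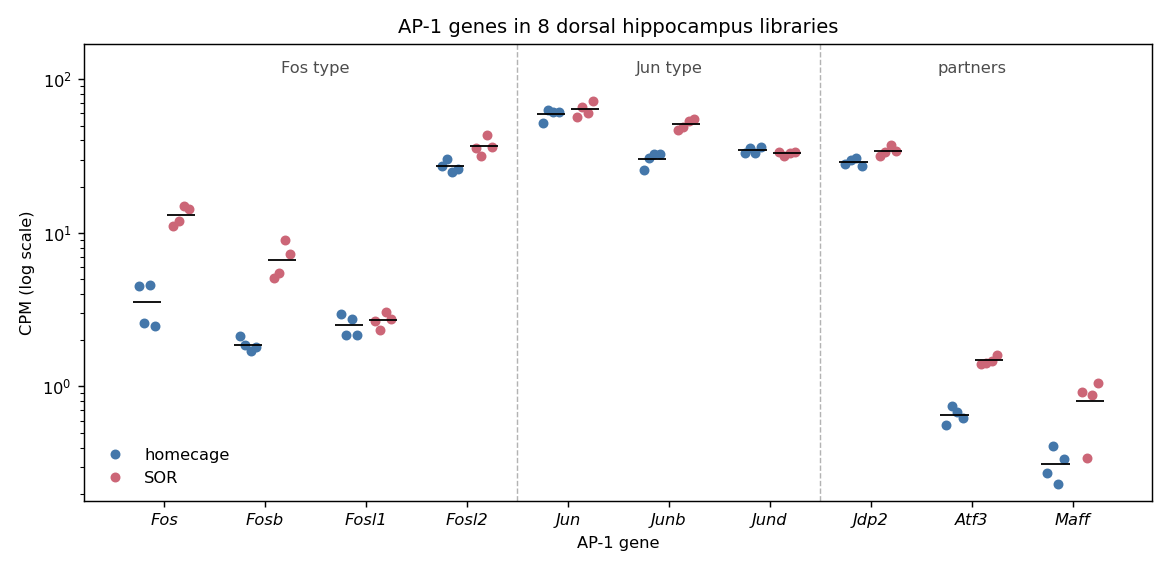
Expression of the 10 AP-1 genes in each of the 8 libraries, in counts per 1e6 reads (CPM) on a log scale. Points are mice, blue for homecage and red for SOR, and black lines are group means (n = 4 per group). The groups are fully separated for *Fos*, *Fosb*, *Fosl2*, *Junb*, *Jdp2* and *Atf3*, and they overlap for *Fosl1*, *Jun*, *Jund* and *Maff*.

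The sequence before the start site is shown for the 4 called genes and for *Jun* and *Maff*, which were not called. The *Maff* window shown is the one that held a complete cAMP response element (CRE), the site bound by CREB-family factors. Each line holds bases -150 to -1 before the RefSeq start site (GRCm38.p6), 5′ to 3′ on the strand of the gene. Capitals mark TGACG, the core of the CRE, on either strand, the TATA motif TATAAA, and the complete CRE TGACGTCA. Only exact matches are marked, so the near match tgacatca in the *Jun* line stays in lower case.
*Fos*, chr12:85473740-85473889, plus strand: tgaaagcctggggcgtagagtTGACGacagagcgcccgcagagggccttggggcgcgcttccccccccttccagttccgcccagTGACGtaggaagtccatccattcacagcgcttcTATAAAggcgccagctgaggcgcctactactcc
*Fosb*, chr7:19310046-19310195, minus strand: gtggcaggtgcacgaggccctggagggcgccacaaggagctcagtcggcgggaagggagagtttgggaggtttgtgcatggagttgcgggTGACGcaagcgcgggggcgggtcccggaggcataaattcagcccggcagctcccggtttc
*Junb*, chr8:84978749-84978898, minus strand: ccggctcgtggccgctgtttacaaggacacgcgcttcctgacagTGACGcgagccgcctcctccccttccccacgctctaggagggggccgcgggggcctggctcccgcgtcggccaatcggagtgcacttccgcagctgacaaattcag
*Atf3*, chr1:191183334-191183483, minus strand: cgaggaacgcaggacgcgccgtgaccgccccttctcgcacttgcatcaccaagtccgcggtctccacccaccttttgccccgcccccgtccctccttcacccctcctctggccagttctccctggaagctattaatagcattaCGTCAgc
*Jun*, chr4:95052223-95052372, minus strand: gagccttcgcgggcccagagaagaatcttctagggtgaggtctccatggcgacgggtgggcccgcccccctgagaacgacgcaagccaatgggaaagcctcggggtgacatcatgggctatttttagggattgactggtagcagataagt
*Maff*, chr15:79347370-79347519, plus strand: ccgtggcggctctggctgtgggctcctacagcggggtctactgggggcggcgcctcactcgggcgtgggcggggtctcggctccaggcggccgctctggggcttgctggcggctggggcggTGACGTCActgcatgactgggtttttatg

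RefSeq windows from 250 bases before to 50 bases after a start site were given for 9 of the 10 genes. In these windows the CRE core TGACG was found on at least 1 strand for 6 genes, and 23.0% of all genes with a window held it. These were the called *Fos*, *Fosb*, *Junb* and *Atf3*, and also *Jdp2* and *Maff*, which were not called. *Jdp2* and *Maff* have 3 windows each, which gives them more chances of a match. In *Fos* the core began at base -129 and again at base -66, counting the start site as 0, in *Fosb* at -60, in *Junb* at -106, and in *Atf3* at -7 on the other strand. The complete CRE TGACGTCA was found only in *Maff*, where it began at -29, and it also counts as a core on each strand. It was present in 2.03% of genes. TATAAA, which 15.7% of genes held, was found in *Fos* at -33 and in *Junb* at the RefSeq start site itself. That *Junb* start lies 30 bases upstream of the GENCODE start, so the motif does too. Neither the AP-1 site TGANTCA, found in 8.97% of genes, nor the CArG box, to which serum response factor binds and which 1.81% held, was found in any window of these genes. Sequence more than 250 bases before a start site was not searched, so sites further upstream would be missed. The *Jund* window lies around a RefSeq start 1210 bases upstream of the GENCODE gene, and the *Atf3* window around one 34706 bases inside the GENCODE gene, so neither covers the GENCODE start. The *Fosl2* window likewise lies around a start 671 bases inside its gene. The *Jdp2* window with the core lies around a start 389 bases inside the gene. The *Maff* window with the complete CRE lies around a start 899 bases inside, and its other window with a core around one 1781 bases inside. At the GENCODE start of *Maff* the window held none of these motifs. A match describes these letters and is not evidence of binding.

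Among the Fos-type genes, *Fos* and *Fosb* rose and *Fosl1* and *Fosl2* did not pass the test. *Fos* (ENSMUSG00000021250, chromosome 12 of GRCm38, 85473890 to 85477273, plus strand), which encodes the founding member of the family, held 4.54, 2.60, 4.59 and 2.47 CPM in the 4 homecage mice and 11.1, 12.03, 15.1 and 14.3 CPM in the 4 SOR mice. The lowest SOR mouse was above the highest homecage mouse, and homecage replicates 1 and 3 had more *Fos* than replicates 2 and 4. On the means, *Fos* went from 3.55 ± 1.17 to 13.1 ± 1.87 CPM (SD, n = 4 per group). The log2 fold change was 1.89 (SE 0.214, adjusted p = 0.00477, edgeR quasi-likelihood test). The spread between mice of the *Fos* level was 33.0% of the mean (coefficient of variation) in homecage and 14.3% in SOR mice.

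*Fosb* (ENSMUSG00000003545, chromosome 7, 19302696 to 19310051, minus strand) encodes FosB and, by alternative splicing, the long-lived truncated form ΔFosB, which gene counts do not separate. It held 2.13, 1.85, 1.70 and 1.81 CPM in homecage mice and 5.11, 5.48, 8.95 and 7.31 CPM in SOR mice. All 4 SOR mice exceeded all homecage mice, with replicates 3 and 4 highest. The log2 fold change of *Fosb* was 1.84 (SE 0.183, adjusted p = 0.00199, edgeR). In contrast to *Fos*, its coefficient of variation was 9.76% in homecage and 26.5% in SOR mice.

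*Fosl2* (ENSMUSG00000029135, chromosome 5, 32135801 to 32157842, plus strand) encodes Fra-2. It held 27.3, 30.2, 25.0 and 25.9 CPM in homecage mice and 35.5, 31.5, 43.4 and 36.2 CPM in SOR mice. The groups did not overlap (exact two-sided permutation test, p = 0.0286, the smallest that 4 against 4 allow), although SOR replicate 2 exceeded homecage replicate 2 by little. The log2 fold change of *Fosl2* was 0.44 (SE 0.0954), and with an adjusted p of 0.122 in edgeR's test over all genes it was not called. It passed the adjusted p threshold with the likelihood ratio test and with DESeq2, where its fold change stayed under 1.4. The paper's own bulk analysis, with the same thresholds but a different fit, lists *Fosl2* among its changed genes. *Fosl1* (ENSMUSG00000024912, chromosome 19, 5447547 to 5455946, plus strand), which encodes Fra-1, lay between 2.16 and 2.94 CPM in homecage mice and between 2.34 and 3.06 CPM in SOR mice. The groups overlapped, and its log2 fold change was 0.11 with a nominal 95% interval from -0.17 to 0.40 (adjusted p = 0.846, edgeR). *Fosl1* shares 2767 bases with *Ccdc85b* on the other strand, which held 9.96 CPM in homecage mice and 10.2 CPM in SOR mice, and since the strand setting of the counting is not stated the reads of this pair may not be fully separated.

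**Figure D2:**
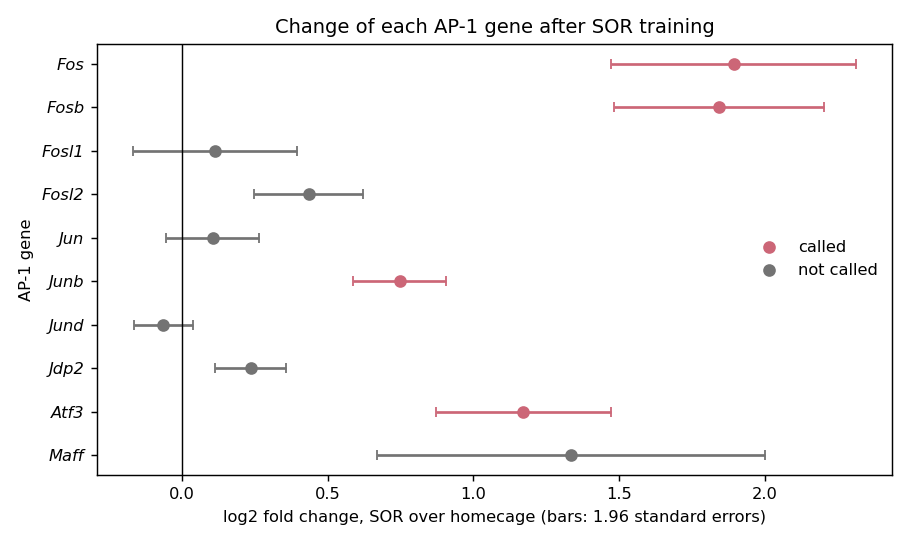
Log2 fold change of each AP-1 gene, SOR over homecage, from edgeR's quasi-likelihood fit. Points are estimates, bars are 95% intervals, and red marks the called genes. *Fos* and *Fosb* lie near 1.9, *Atf3* at 1.17 and *Junb* at 0.75, while the bars of *Fosl1*, *Jun* and *Jund* include 0.

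Among the Jun-type genes, *Junb* rose. *Junb* (ENSMUSG00000052837, chromosome 8, 84974484 to 84978718, minus strand), whose protein can restrain the activity of Jun, held 25.8, 30.8, 32.5 and 32.8 CPM in homecage mice and 46.6, 49.3, 53.7 and 55.0 CPM in SOR mice. Every SOR mouse was well above the highest homecage mouse. The means were 30.5 ± 3.22 and 51.2 ± 3.91 CPM (SD, n = 4 per group), and the log2 fold change was 0.75 (SE 0.0817, adjusted p = 0.00389, edgeR). In CPM this was the largest gain of the 10 genes, 20.7 CPM, against 9.55 CPM each for *Fos* and *Fosl2*. *Junb* overlaps *Prdx2* on the other strand by 351 bases, and *Prdx2* held 132 CPM in homecage mice and 131 CPM in SOR mice, with a log2 fold change of -0.01 (adjusted p = 0.953, edgeR).

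*Jun* (ENSMUSG00000052684, chromosome 4, 95049034 to 95052222, minus strand), which encodes c-Jun, held 51.9, 63.1, 61.3 and 61.4 CPM in homecage mice and 57.2, 65.6, 60.6 and 72.7 CPM in SOR mice. Only SOR replicates 2 and 4 exceeded the homecage range, and homecage replicate 1 lay below all other libraries. The log2 fold change of *Jun* was 0.11 with a nominal 95% interval from -0.05 to 0.27 (adjusted p = 0.716, edgeR). This interval lay wholly below that of *Junb*, 0.59 to 0.91. *Jund* (ENSMUSG00000071076, chromosome 8, 70698949 to 70700616, plus strand), the member known for steady expression, lay between 33.0 and 36.5 CPM in homecage mice and between 31.5 and 33.9 CPM in SOR mice. Its log2 fold change was -0.06 (nominal 95% interval -0.17 to 0.04, adjusted p = 0.744, edgeR), and its coefficients of variation, 4.91% and 3.40%, were the smallest of the 10 genes in either group. *Jun*, *Junb* and *Jund* each have a coding transcript of a single exon, whereas coding transcripts of the other 7 genes have at least 2 exons.

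Of the 3 partners, *Atf3* rose and *Jdp2* and *Maff* did not pass the test. *Atf3* (ENSMUSG00000026628, chromosome 1, 191170296 to 191218039, minus strand), a factor induced by many kinds of cell stress and by neuronal activity, held 0.563, 0.744, 0.678 and 0.628 CPM in homecage mice and 1.398, 1.42, 1.47 and 1.61 CPM in SOR mice. The groups were far apart relative to the spread between mice, although the values rest on 31.3 to 104 counts per library. The log2 fold change of *Atf3* was 1.17 (SE 0.153, adjusted p = 0.00971, edgeR). Without homecage replicate 4 the adjusted p of *Atf3* rose to 0.0607 while the log2 fold change was 1.15, so the call was lost without that library.

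*Maff* (ENSMUSG00000042622, chromosome 15, 79346621 to 79359076, plus strand) was the lowest of the 10 genes in CPM, with 12.98 to 68.5 counts per library. It held 0.272, 0.407, 0.232 and 0.339 CPM in homecage mice and 0.914, 0.342, 0.875 and 1.06 CPM in SOR mice. SOR replicates 1, 3 and 4 exceeded all homecage mice, and SOR replicate 2 lay within the homecage range. The log2 fold change of *Maff* was 1.33 (SE 0.34, adjusted p = 0.189, edgeR). Without SOR replicate 2 it was 1.58, with an adjusted p of 0.051, and DESeq2 gave it no adjusted p. With the likelihood ratio test *Maff* was called (log2 fold change 1.34, adjusted p = 0.0337). *Jdp2* (ENSMUSG00000034271, chromosome 12, 85599027 to 85639878, plus strand), an abundant gene here, lay between 27.2 and 30.8 CPM in homecage mice and between 31.8 and 37.1 CPM in SOR mice. Its groups did not overlap, but the difference was small, a log2 fold change of 0.24 (SE 0.0625, adjusted p = 0.212, edgeR), and only DESeq2 brought its adjusted p under 0.05, at a fold change under 1.4.

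Per kb of annotated exon, the level of the genes ran over a wide range. In homecage mice *Jund* (20.7 ± 1.02 CPM per kb, SD, n = 4) and *Jun* (18.6 ± 1.59) were highest and overlapped, followed by *Jdp2* (13.5 ± 0.768) and *Junb* (13.2 ± 1.399), which also overlapped. *Fosl2* came next at 2.80 ± 0.237 CPM per kb. *Fos* (1.51 ± 0.499) and *Fosl1* (1.23 ± 0.195) overlapped, and so did *Atf3* (0.303 ± 0.0356) and *Fosb* (0.2996 ± 0.0292). *Maff* was lowest at 0.121 ± 0.0296 CPM per kb. In SOR mice *Junb* (22.2 ± 1.70 CPM per kb), *Jun* (20.1 ± 2.12) and *Jund* (19.8 ± 0.675) formed the top, with overlap between neighbours in that order. *Fos* (5.57 ± 0.796 CPM per kb) was then above *Fosl2* (3.79 ± 0.512) in range as well as mean, and *Fosb* (1.07 ± 0.284) was above *Atf3* (0.685 ± 0.0439). These lengths count every annotated exon, so a gene with a long rarely used exon appears too low.

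The makeup of the Fos-type transcripts per kb is given as a description, with no test. Of the summed Fos-type CPM per kb, *Fosl2* made up 48.4 ± 6.88% in homecage and 32.2 ± 1.964% in SOR mice (SD, n = 4 per group). *Fos* made up 25.4 ± 6.09% and 47.4 ± 2.21%, and the groups did not overlap for either share. The share of *Fosb* went from 5.16 ± 0.538% to 9.03 ± 1.14%, and that of *Fosl1* from 21.0 ± 1.36% to 11.3 ± 0.799%. Among Jun-type transcripts per kb, *Junb* made up 25.1 ± 1.21% in homecage and 35.8 ± 1.21% in SOR mice, while *Jund* went from 39.5 ± 1.78% to 32.0 ± 1.91% and *Jun* from 35.4 ± 0.936% to 32.3 ± 1.92%. A share can fall when another member gains, and the levels of *Jun*, *Jund* and *Fosl1* did not pass the test in either direction.

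**Figure D3:**
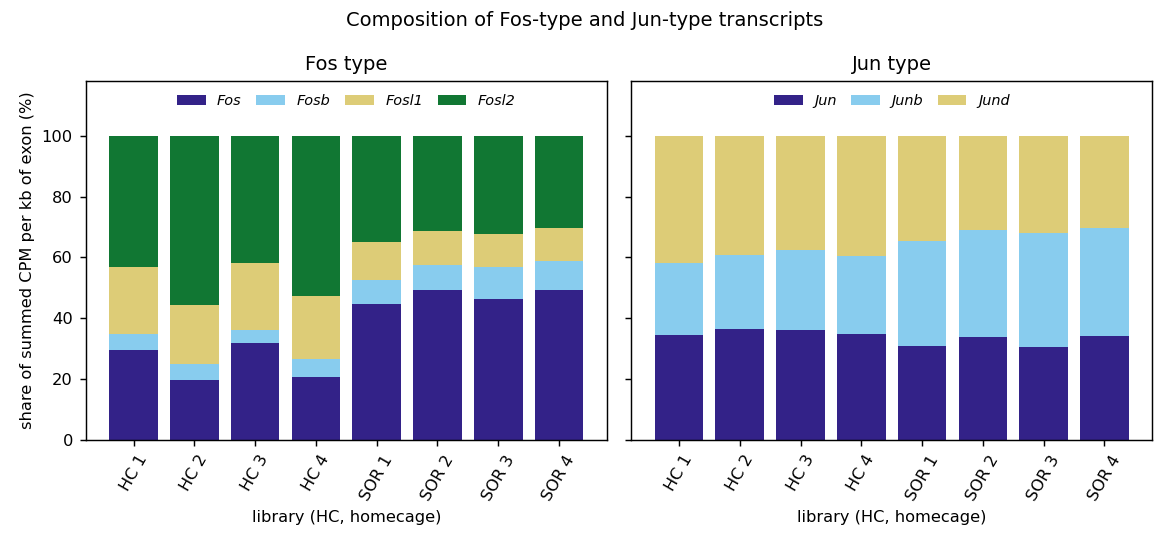
Share of each gene in the summed CPM per kb of exon of the Fos-type (left) and Jun-type (right) genes, in percent, with 1 bar per library. *Fosl2* is the largest Fos-type share in the 4 homecage libraries and *Fos* in the 4 SOR libraries, and the share of *Junb* is larger in each SOR than in each homecage library.

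Fos-type and Jun-type genes were then compared within each library. Scaling between libraries has no effect on their ratio, but it does enter the summed CPM. Summed CPM of the 4 Fos-type genes was 36.9, 36.8, 34.0 and 32.3 in homecage and 54.3, 51.4, 70.5 and 60.4 in SOR mice. The sum of the 3 Jun-type genes was 111, 129, 127 and 131 CPM in homecage mice and 138, 146, 148 and 162 CPM in SOR mice. Neither sum overlapped between groups, and the Fos-type sum gained 1.69-fold and the Jun-type sum 1.19-fold on the means. The Jun-type gain of 23.8 CPM came mostly from *Junb*, at 20.7 CPM, with 4.61 for *Jun* and -1.48 for *Jund*. The Fos-type gain of 24.1 CPM held 9.55 each from *Fos* and *Fosl2*, 4.84 from *Fosb* and 0.199 from *Fosl1*. The log2 ratio of the Fos-type to the Jun-type sum was -1.58, -1.81, -1.90 and -2.02 in homecage and -1.34, -1.51, -1.07 and -1.42 in SOR mice. The groups were separated by a narrow gap between homecage replicate 1 and SOR replicate 2. The mean log2 ratio was higher by 0.49 in SOR mice, by 0.76 when CPM per kb was summed and by 0.81 when log2 CPM was averaged over the members, and by 0.39 without *Jund*, so its size depends on which members enter and how they are weighted. As a score over chosen genes, this ratio was given no test.

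Single genes of the 2 types were compared in 12 pairs with exact two-sided permutation tests on the log2 ratio of their CPM, with Benjamini-Hochberg adjustment across those 12. The groups did not overlap in 8 pairs, each with an exact permutation p = 0.0286 and an adjusted p of 0.0429. This p is the smallest that the 70 assignments allow, so the adjusted value depends on how many pairs reach it. The pairs share genes and libraries, and most of the 8 hold *Fos* or *Fosb*, whose own levels separated the groups. No share over pairs of other genes was computed. *Fos* gained on *Jun* by 1.83 (SE 0.306) on the log2 scale, on *Jund* by 2.00 (SE 0.298) and on *Junb* by 1.18 (SE 0.297). The ratio of *Fos* to *Jun* was -3.51, -4.60, -3.74 and -4.63 in homecage and -2.37, -2.45, -2.01 and -2.35 in SOR mice. *Fosb* gained on the same genes by 1.71, 1.87 and 1.06. *Fosl2* gained on *Jund* by 0.49 (SE 0.104). It differed by 0.32 (SE 0.161) from *Jun* and by -0.32 (SE 0.140) from *Junb*, with overlap in both pairs (p = 0.114 each, adjusted p = 0.137, exact permutation test). *Fosl1* lost on *Junb*, by -0.63 (SE 0.189), the only separated pair in which the Jun-type gene gained more. For *Fosl1* against *Jun* (0.01, SE 0.207) and against *Jund* (0.18, SE 0.161) the groups overlapped.

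**Figure D4:**
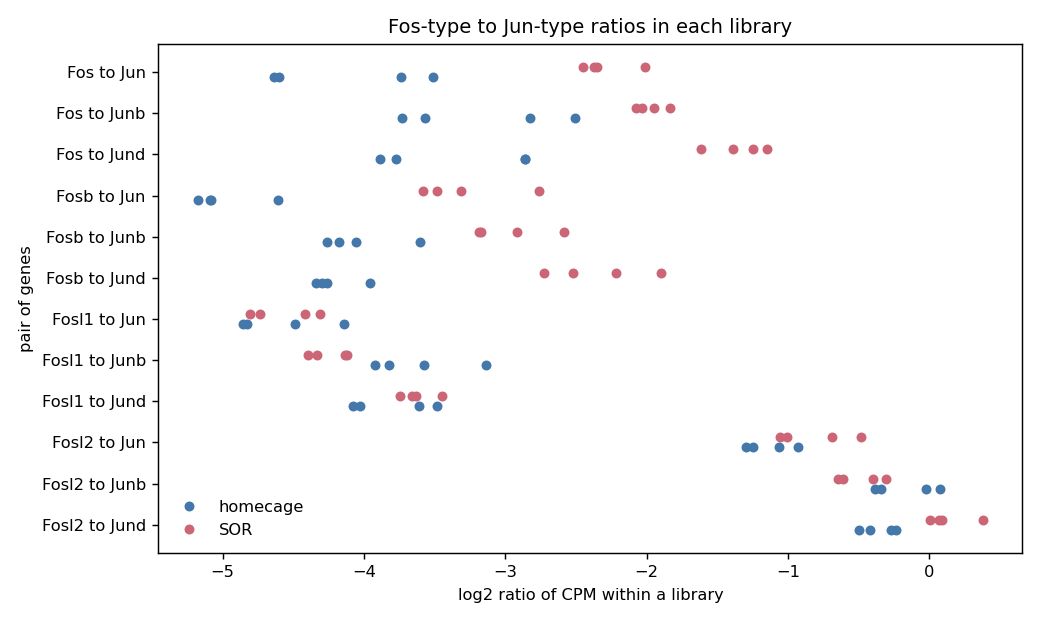
Log2 ratio of CPM of a Fos-type to a Jun-type gene within each library, for the 12 pairs, with homecage mice in blue and SOR mice in red. The 6 pairs with *Fos* or *Fosb* are shifted to higher ratios in SOR mice without overlap, *Fosl1* to *Junb* is shifted to lower ratios, and 4 pairs with *Fosl1* or *Fosl2* overlap.

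Mice did not rank alike for every gene. Among SOR mice, replicate 3 was highest for 5 genes and replicate 4 for the other 5, and replicate 1 was lowest for 6 genes and replicate 2 for 4. Without SOR replicate 1, the library that stood apart, the log2 fold changes were 1.97 for *Fos*, 1.95 for *Fosb*, 0.79 for *Junb* and 1.19 for *Atf3*, and all 4 remained past the thresholds. As a description over the 8 libraries, deviations from the group mean of log2 CPM correlated most between *Fos* and *Fosl1* (Pearson r = 0.89), between *Jun* and *Atf3* (r = 0.80) and between *Jund* and *Maff* (r = 0.79), and least between *Fos* and *Jund* (r = -0.68). The points share libraries and depth, and 45 pairs of genes were looked at.

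The genes whose log2 CPM followed *Fos* most closely over the 8 libraries, among other genes whose mean reached 1 CPM, were *Sertad1* (Pearson r = 0.98), *Dnajb5* (r = 0.97), *Adipor2* (r = 0.96), *Rasl11b* (r = 0.96) and *Lonrf3* (r = 0.96). Since *Fos* separates the groups, these genes do so too, and *Dnajb5* (log2 fold change 0.51, adjusted p = 4.66e-04) and *Adipor2* (0.52, adjusted p = 3.78e-04) passed the adjusted p threshold in edgeR's test. The genes closest to *Jun* were *Capn5* (r = 0.97), *Gm14419* (r = 0.96), *Pcdh8* (r = 0.96), *Nptx1* (r = 0.95) and *Il10ra* (r = 0.95), with log2 fold changes from 0.04 for *Capn5* to 0.25 for *Gm14419*.

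The nearest tested protein-coding genes on each side of the 10 genes were examined to see whether the gains extended to their surroundings. *Fos* and *Jdp2* are neighbours in this sense, 122 kb apart on chromosome 12. Of the other 18 neighbours none was called, against 0.173% of all genes. Their log2 fold changes ran from -0.26 for *Plb1* to 0.38 for *Lsm4*, with a median of -0.03. The groups did not overlap for 2 of the 18, against 6.94% of all genes, so this count is not set apart from the other genes. *Pla2g6*, 18.2 kb from *Maff*, was higher in every SOR mouse, with 10.7 ± 0.411 and 11.9 ± 0.304 CPM (log2 fold change 0.16, adjusted p = 0.468, edgeR), and *Babam2*, beside *Fosl2*, was lower in every SOR mouse, with 26.9 ± 2.33 and 23.6 ± 0.901 CPM (-0.19, adjusted p = 0.384). *Ercc1*, the other neighbour of *Fosb*, had a log2 fold change of 0.27 (adjusted p = 0.542). *Rtn2*, 6.54 kb from *Fosb*, held 43.2 ± 0.974 CPM in homecage mice and 42.7 ± 1.29 CPM in SOR mice, and *Tmed10* on the other side of *Fos* held 63.3 ± 1.10 and 63.6 ± 4.51 CPM. *Rnaseh2a*, 4.72 kb from *Junb*, held 11.1 ± 1.38 and 10.1 ± 2.42 CPM (SD, n = 4 per group).

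Related factors, upstream kinases and described targets were taken from lists. Only 0.173% of all genes were called, so the absence of calls in lists this short says little. Of 22 other basic leucine zipper factors 20 were tested and none was called, with a median log2 fold change of 0.03. An unadjusted p under 0.05 in edgeR's test was reached by 6 of the 20, against 10.1% of all genes. Every SOR library lay above every homecage library for 3 and below for 1, against 6.94% of all genes in either direction. *Creb5* had the largest difference, from 7.07 ± 1.01 to 4.18 ± 0.622 CPM (log2 fold change -0.76, SE 0.141, adjusted p = 0.0633, edgeR). *Crem*, whose products include the inducible repressor ICER, had a log2 fold change of 0.32 (SE 0.108, adjusted p = 0.338) and *Nfe2l2*, which encodes NRF2, one of 0.28 (SE 0.119, adjusted p = 0.463). None of 22 kinases and transcription factors upstream of *Fos* and *Jun* was called, with a median of -0.02, and 2 had an unadjusted p under 0.05. The largest values there were 0.29 for *Mef2d* (SE 0.161, adjusted p = 0.592), 0.22 for *Rps6ka3*, the kinase RSK2 (SE 0.0605, adjusted p = 0.225), and 0.19 for *Srf*, serum response factor (SE 0.0562, adjusted p = 0.277). Of 18 genes described as AP-1 targets in other settings 15 were tested and none was called, with a median of -0.03, and 2 had an unadjusted p under 0.05. *Nptx2*, a pentraxin that gathers AMPA receptors at synapses, went from 15.0 ± 1.51 to 20.0 ± 1.76 CPM (log2 fold change 0.41, SE 0.0901, adjusted p = 0.122), *Vgf*, a neuropeptide precursor, from 24.9 ± 0.957 to 30.5 ± 3.09 CPM (0.29, SE 0.074, adjusted p = 0.179), and *Hmox1*, heme oxygenase 1, from 3.35 ± 0.318 to 3.91 ± 0.453 CPM (0.23, SE 0.123, adjusted p = 0.581). *Penk*, with a well-studied AP-1 site, had 25.4 ± 2.25 and 24.0 ± 3.34 CPM.

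Markers of inhibitory neurons, astrocytes, microglia, mature oligodendrocytes and endothelial and mural cells were not called either, 0 of 6 in each list, against 0.173% of all genes. Of these, the 6 oligodendrocyte genes all had log2 fold changes below 0, median -0.17. Of microglial, inhibitory neuron and endothelial and mural genes 4 of 6 each were below 0, with medians of -0.09, -0.01 and -0.05, and of astrocyte genes 3 of 6, while 43.8% of all genes tested were above 0. The 5 red blood cell genes had a median of 0.37, from 98.6 to 127 CPM in sum in homecage and from 115 to 184 CPM in SOR mice.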

How the data were processed

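Bulk RNA-seq of dorsal hippocampus from 4 homecage and 4 SOR mice was used. The authors aligned reads with STAR and counted genes with featureCounts within bcbio-nextgen. The deposited values are estimated counts per Ensembl gene from tximport, not normalized, of which 52.6% are not whole. The quantifier behind tximport and the strand setting are not given in the sources used here. The methods name a stranded total RNA kit, while the labels name polyA RNA, and the submitters' notes give the build mm10 (GRCm38).

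Counts were rounded, filtered with filterByExpr and scaled with upper-quartile factors, and edgeR 4.0.16 (R 4.3.3) compared the groups by its quasi-likelihood test. Benjamini-Hochberg adjustment ran over all 22018 genes tested, and fits were tested on simulated data. CPM uses the scaled library sizes, and a standard error is the log2 fold change divided by the root of F. A nominal 95% interval is the estimate with 1.96 standard errors on each side, which leaves out the degrees of freedom of the test. RUVs factors, which the authors used in a number they do not state, were tried only as alternatives, as were TMM, RLE and library size scaling, other filters, the likelihood ratio test, DESeq2 1.42.0, limma-voom (limma 3.58.1), a replicate block, counts not rounded, and each library left out in turn. Positions, exon lengths and symbols came from GENCODE M21, which matched 54495 of 54532 rows, and promoter windows from RefSeq (GRCm38.p6). Tables were made with Python 3.11.15.

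Genes named are the 10 AP-1 genes, members of the factor, kinase and target lists among the 3 largest changes of their list, called list members, the 5 genes closest to *Fos* and to *Jun*, and neighbouring genes. *Penk*, *Grik4*, *Ccdc85b* and *Prdx2* were named outside this rule, after their values were seen. Marker lists are given by counts and sums. The members and lists were chosen with earlier results of these data known. Labels do not state whether libraries came from separate cohorts, so p-values measure the spread between these mice.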

Additional observations from a re-analysis of the deposited data

Results flagged for a closer look

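*Jun* in homecage replicate 1 was at 51.9 CPM, while the other homecage mice lay between 61.3 and 63.1 CPM, a gap above Dixon's 95% limit for 4 samples. Of 20 groups of 4 values examined over the 10 genes this was the only one, and chance gives about 1 in 20. Homecage replicate 1 was also the lowest homecage library for *Junb*, *Jund* and *Atf3*.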

How the results depend on the processing

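The number of AP-1 genes called was 4 in the analysis given above and 3 to 5 over the alternatives, 5 with the likelihood ratio test, which added *Maff*, and 3 with the replicate block and without homecage replicate 4, which each lost *Atf3*. With 1 library left out in turn the count ranged from 3 to 4. *Fos*, *Fosb* and *Junb* passed the adjusted p threshold in all 13 alternatives with all libraries and in all 8 fits without 1 library, and no log2 fold change of the 10 genes changed sign. The log2 ratio of Fos-type to Jun-type sums differed by 0.49 between groups, by 0.76 with CPM per kb, by 0.81 with averaged log2 CPM, by 0.39 without *Jund*, and by 0.41 to 0.58 with 1 library left out. The adjusted p of *Fosl2* was 8.79e-04 at the lowest, and *Fosl2*, *Jdp2* and *Maff* gained a place past the adjusted p threshold 4 times in all. Over all genes, 38 were called, against 105 with the likelihood ratio test, 112 with DESeq2 and 22 to 38 with 1 library left out, with 22 without homecage replicate 2 and 25 without homecage replicate 4.

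The labels do not state whether homecage and SOR libraries of the same replicate number share a batch. Same-numbered libraries correlated between -0.0989 and 0.151 in their deviations from the group mean, and differently numbered ones between -0.307 and 0.234. With so few libraries these correlations cannot settle the question. With the replicate block 3 AP-1 genes and 30 genes in all were called, and *Atf3* had an adjusted p of 0.0754. Depth limits *Maff* and *Atf3*, whose counts were 12.98 to 104 per library.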
